A study of Sus scrofa with 24 samples.

Results

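Collagen genes were taken as the rows of the deposited gene table whose symbol has the form COL, a type number, A and a chain number. This gave 43 of 20674 genes. They were placed in 9 classes by the structure their proteins form. There were 11 fibrillar, 10 FACIT (fibril-associated with interrupted triple helices), 6 basement membrane, 4 beaded filament, 4 transmembrane, 3 short-chain network and 2 multiplexin genes, with COL7A1 of the anchoring fibrils and a pair of others, COL26A1 and COL28A1. The chain COL6A1 is absent from the 43 because its locus carries the symbol LOC100623720, which the annotation describes as collagen alpha-1(VI). That locus had 51.8 to 129 FPKM across ileum libraries and 50.5 to 134 FPKM across colon libraries.

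RNA came from ileum and colon of pregnant sows at gestation day 114. From breeding on, the sows ate 1 of 4 diets: LF with 3.73% crude fibre, LN with the same fibre and 0.05% N-carbamylglutamate (NCG), HF with 7.46% crude fibre, and HN with 7.46% crude fibre and 0.05% NCG. NCG resembles N-acetylglutamate, which switches on the first step of the urea cycle, and is fed so that animals make more arginine. The trial had 100 sows per diet, and each combination of tissue and diet is represented by 3 libraries, or 24 in total. All animals were female and pregnant, and breed and age are not given in the sources used here. The labels do not say whether the 3 libraries of a group are 3 sows or whether ileum and colon came from the same sows, so p-values measure the spread between libraries, which may be partly technical.

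Collagens are secreted or membrane-bound proteins in which 3 chains wind into a triple helix. In the gut wall the fibrillar types I, III and V form the fibres of the lamina propria and submucosa, type IV forms the sheet under epithelium, vessels and muscle cells, and type VI forms filaments between both. Fibroblasts, smooth muscle, endothelium and epithelium make different members of the family, so the profile of a piece of gut wall depends on which layers it holds.

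Ileum libraries held 11951729 to 19896941 counts and colon libraries 14843272 to 18575695 counts, and the correlation of log2 CPM between libraries of 1 group lay between 0.715 and 0.983. Libraries differed in how much muscle RNA they held. The summed CPM (read counts scaled to TMM library size) of 12 smooth muscle markers ran from 1325 to 48969 in the ileum and from 1716 to 116590.0 in the colon, and none of the 12 was at 0 throughout. A gap separated 11 libraries at 7206 CPM or more from 13 at 2749 CPM or less. The 11 were ileum LF 2, LF 3, LN 3 and HN 2, and colon LF 1, LF 2, LF 3, LN 1, LN 2, HN 1 and HN 2. All 6 HF libraries were among the low ones. In colon LF 2 and colon HN 1, with 116590.0 and 108339 CPM of smooth muscle markers, the 8 epithelial markers summed to only 145 and 317 CPM, against 2849.7 to 13699.6 CPM in the other 10 colon libraries. In such bulk samples fewer cells of a type and less RNA per cell cannot be told apart.

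Levels of different genes were compared as FPKM, which is per transcript length. The 43 genes together made up 0.367% to 0.911% of the counts of an ileum library and 0.646% to 1.60% of a colon library. Their summed level averaged 1065 ± 286 FPKM in the ileum and 1815 ± 547 FPKM in the colon (mean ± SD, n = 12 each). By mean over all 24 libraries, 16 members lay above 10 FPKM, 11 between 1 and 10 FPKM, and 16 below 1 FPKM. The 5 most abundant, COL3A1, COL1A2, COL1A1, COL4A1 and COL6A2, held 71.3% of all collagen FPKM. Types I and III alone held 55.5% to 69.0% in ileum libraries and 56.0% to 67.0% in colon libraries, ranges that largely overlap.

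By class, the fibrillar genes summed to 417 to 1199 FPKM in the ileum (median 693) and 697 to 1752 FPKM in the colon (median 1159). The basement membrane genes had medians of 106 and 175 FPKM in ileum and colon, the beaded filament genes 89.1 and 139.7, the FACIT genes 60.5 and 84.7 and the multiplexins 40.0 and 58.7 FPKM. The transmembrane class had the widest ratio of tissue medians, at 18.4 and 105 FPKM. COL17A1 held most of the class mean, 17.1 of 21.3 FPKM in the ileum and 93.4 of 97.8 FPKM in the colon. Short-chain, anchoring fibril and other genes stayed at medians of 2.26, 1.78 and 0.498 FPKM in the ileum and 5.60, 1.15 and 0.956 FPKM in the colon. By diet, the sum over all 43 genes averaged 1157 ± 318 FPKM in ileum LF, 896 ± 231 in LN, 1288 ± 295 in HF and 920.2 ± 219 in HN (SD, n = 3). In the colon it averaged 2216 ± 563 FPKM in LF, 1625 ± 398 in LN, 1562 ± 377 in HF and 1858 ± 796 in HN, so the diet groups lay within about 1 or 2 SD of each other in either tissue. Collagen transcripts are long, with a median of 6140 bases against 3051 over all genes, so equal FPKM means more counts for a collagen gene than for a typical gene.

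**Figure D1:**
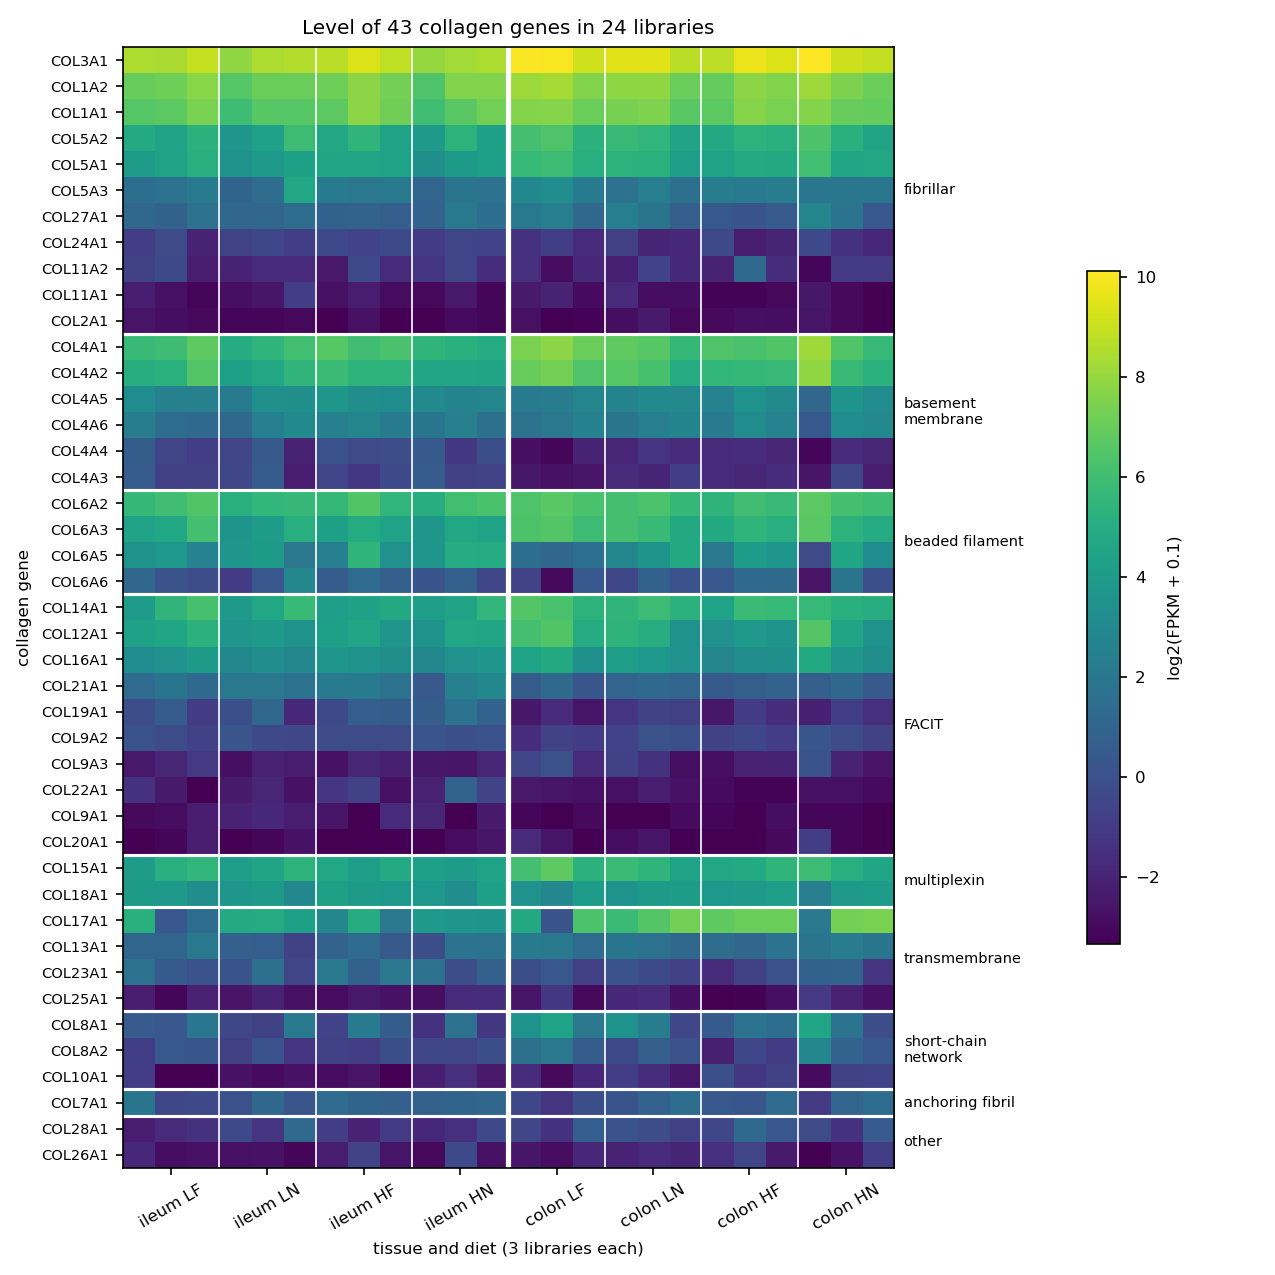
Level of each of the 43 collagen genes (rows, by class) in each of the 24 libraries (columns, 3 per tissue and diet), as log2(FPKM + 0.1). COL3A1 is the brightest row in every library. COL1A2 and COL1A1 follow in most libraries, but COL17A1 or COL4A1 is brighter than COL1A1 in some colon libraries. COL17A1 is bright in most colon libraries and dark in colon LF 2 and colon HN 1. The lower rows of the fibrillar and FACIT blocks stay near the floor.

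The fibrillar class was led by COL3A1, the chain of the type III collagen of distensible tissues, at chr15:93556914-93595678 of Sscrofa11.1. It ranged from 233 to 688 FPKM (median 359) in the ileum and from 420.2 to 1111 FPKM (median 698) in the colon, and by its mean it ranked 126 among all genes. The type I chains followed. COL1A2 averaged 153 ± 43.6 FPKM in the ileum and 209 ± 62.9 FPKM in the colon (mean ± SD, n = 12), and COL1A1 averaged 118 ± 44.7 and 159 ± 38.2 FPKM. These chains share 1 triple helix, and their FPKM ratio COL1A1 to COL1A2 held a narrow range, 0.537 to 0.983 in the ileum and 0.650 to 0.931 in the colon. The ratio of COL3A1 to COL1A1 was 2.37 to 3.98 in the ileum (median 3.42) and 3.84 to 5.64 in the colon (median 4.22). Only a narrow stretch of the 2 ranges overlapped, with type III weighing more against type I in the colon.

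Type V chains, which sit inside type I fibrils and set their diameter, were well below. COL5A2 averaged 29.2 ± 13.7 FPKM in the ileum and 46.7 ± 21.9 in the colon, COL5A1 19.6 ± 6.39 and 36.8 ± 15.3 FPKM, and COL5A3 5.26 ± 6.71 and 4.96 ± 1.88 FPKM. The wide ileum spread of COL5A3 came from a single library, ileum LN 3, at 26.4 FPKM. That library also held the highest sum of 6 adipocyte markers (3879.6 CPM, where the ileum median was 44.1) and of 8 endothelial markers (1374 CPM, median 479), and their part in its COL5A3 level was not tested. COL27A1 lay between 1 and 10 FPKM. COL24A1, COL11A2, COL11A1 and COL2A1, the last 3 being chains of cartilage fibrils, all averaged under 1 FPKM, and COL2A1 was the lowest member at 0.0296 FPKM.

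Among basement membrane chains COL4A1 and COL4A2, which form the network common to all basement membranes, stood far above the rest. COL4A1 ranged from 31.2 to 109 FPKM in the ileum and from 48.9 to 285 FPKM in the colon, and COL4A2 between 19.8 and 90.5 and between 30.9 and 237 FPKM. COL4A5 and COL4A6, the chains of a network typical of smooth muscle and some epithelia, had means over all 24 libraries of 7.89 and 5.09 FPKM. COL4A3 and COL4A4, best known from the kidney filter, were at 0.461 and 0.474 FPKM.

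These 6 genes form 3 pairs of neighbours transcribed in opposite directions, and the mean levels of pair members lay close together. COL4A1 (chr11:76858332-76997409) and COL4A2 (chr11:76996885-77161617) overlap head to head by 525 bases, and COL4A4 (chr15:128472228-128612302) and COL4A3 (chr15:128611640-128763331) by 663 bases. Whether the counting used strand is not given in the sources used here, so reads from these short overlaps could fall to either gene. The FPKM ratio of COL4A1 to COL4A2 ran from 1.21 to 1.83 in the ileum and from 1.17 to 1.79 in the colon, while the level of each gene varied several-fold among the same libraries. COL4A6 and COL4A5 on chromosome X, with annotated starts 207898 bases apart, had COL4A5 to COL4A6 ratios of 1.15 to 2.48 in the ileum and 1.12 to 1.81 in the colon. The COL4A3 to COL4A4 ratio was looser, 0.470 to 1.36 in the ileum and 0.518 to 3.85 in the colon, where both genes were scarce. Other neighbours differed more. COL3A1 and COL5A2 lie tail to tail 16177 bases apart on chromosome 15 with mean levels of 552 and 38.0 FPKM. COL6A6 and COL6A5 lie 43574 bases apart on 1 strand of chromosome 13 with 1.54 and 13.6 FPKM.

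Of the type VI chains, which assemble into beaded filaments around cells, COL6A2 averaged 57.4 ± 18.8 FPKM in the ileum and 71.8 ± 19.2 FPKM in the colon, and COL6A3 26.0 ± 14.7 and 55.7 ± 26.0 FPKM (mean ± SD, n = 12). The ratio of COL6A3 to COL6A2 moved from a median of 0.403 in the ileum (range 0.287 to 0.773) to 0.688 in the colon (range 0.491 to 0.985). COL6A5, an alternative to COL6A3 in the filament, varied widely. It ranged from 3.92 to 44.3 FPKM in the ileum and from 0.733 to 28.6 FPKM in the colon, with its minimum in colon HN 1.

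Other abundant members came from several classes. COL14A1 and COL12A1, FACIT collagens that coat fibrils, averaged 41.2 and 28.4 FPKM over all libraries, and COL16A1, of the same class, 12.9 FPKM. The multiplexins COL15A1 and COL18A1, whose proteins link basement membranes to the matrix beyond, averaged 36.3 and 14.0 FPKM. COL17A1, a transmembrane chain of the hemidesmosomes that fix epithelium to its basement membrane, averaged 17.1 ± 12.5 FPKM in the ileum and 93.4 ± 59.8 FPKM in the colon, ranking 3627 and 628 among all genes there. COL7A1, the anchoring fibril chain, had 1.57 FPKM, and COL8A1, which led the short-chain network class, 4.74 FPKM. COL28A1 led the pair of other members at 0.718 FPKM.

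Colon and ileum differed in many collagen genes, in both directions. COL3A1, COL5A1, COL6A3, COL4A1, COL4A2 and COL15A1 of the fibrous and basement membrane matrix, the transmembrane COL17A1 and COL13A1, all 3 short-chain genes and COL28A1 were higher in the colon, by 1.70-fold (COL13A1) to 5.19-fold (COL17A1). COL4A3, COL4A4, COL23A1 and 4 of the minor FACIT genes were lower in the colon, by 2.16-fold (COL21A1) to 6.26-fold (COL9A1). The test used all 24 libraries, averaged the difference over the 4 diets, and called genes at a Benjamini-Hochberg adjusted p under 0.05 from edgeR's quasi-likelihood test. Of 41 members tested, 19 passed, 12 higher and 7 lower in the colon. That is 46.3% of the members, where 28.4% of all 15675 genes tested passed, and by direction 29.3% and 17.1% where 12.5% and 15.9% of all genes passed. An unadjusted p under 0.05 was reached by 28 members, 68.3%, and by 40.1% of all genes. The median log2 change of the 41 members was 0.34, and that of all genes tested -0.03. No member separated its 12 ileum from its 12 colon libraries without overlap, as 0.434% of all genes did upward and 1.03% downward.

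The classes are small and differences between them were not tested. All 3 short-chain genes, 2 of 10 fibrillar, 2 of 4 transmembrane, 1 of 4 beaded filament, 1 of 2 multiplexin and 1 of 2 other genes were higher in the colon. The basement membrane class split, with 2 of 6 higher and 2 lower. In the FACIT class 4 of 9 were lower and none higher, although all 9 had an unadjusted p under 0.05. The uncalled FACIT genes leaned both ways by mean CPM in ileum and colon. COL12A1 (238 and 457), COL14A1 (239.8 and 375), COL16A1 (64.4 and 93.8) and COL9A3 (0.538 and 1.41) leaned higher in the colon. COL9A2 (2.58 and 1.96) leaned lower. Of the transmembrane genes 1 of 4 was lower.

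**Figure D2:**
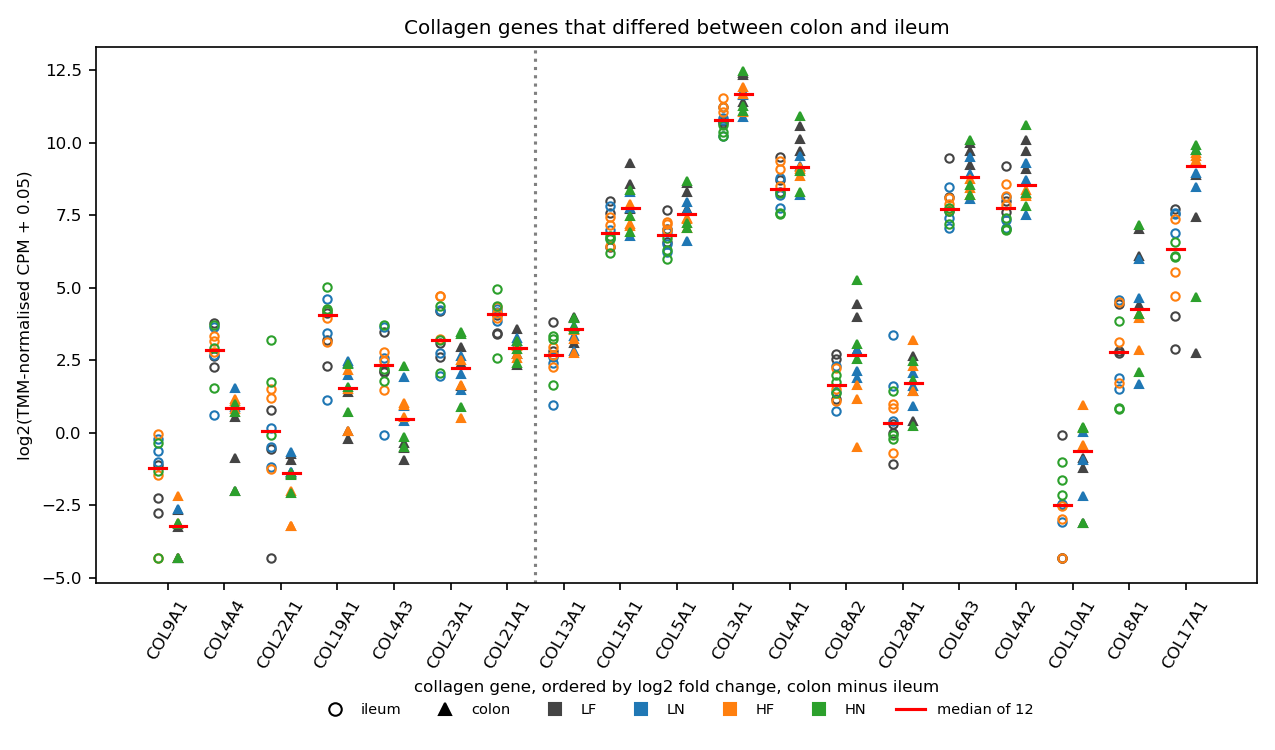
The 19 collagen genes that passed the test between colon and ileum, ordered by log2 fold change, each with its 12 ileum libraries (open circles) and 12 colon libraries (triangles) coloured by diet and a red bar at each median, on log2(TMM-normalised CPM + 0.05). Genes left of the dotted line were lower in the colon and genes right of it higher, and for each gene the ranges of the tissues overlap.

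COL3A1 ranged from 1196 to 2941 CPM (median 1746) in the ileum and from 1882 to 5623 CPM (median 3239) in the colon. The 3 ileum HF libraries and ileum LF 3 reached into the lower part of the colon range. Its log2 change was 0.92 ± 0.18 (SE, adjusted p = 0.00123). COL5A1, the type V chain of fibril cores, lay at medians of 113 CPM in the ileum and 187 CPM in the colon, a log2 change of 0.92 ± 0.20 (SE, adjusted p = 0.00276). The type I chains had the same direction and missed the threshold, with log2 changes of 0.47 ± 0.18 (SE, adjusted p = 0.0565) for COL1A1 and 0.46 ± 0.18 (SE, adjusted p = 0.0564) for COL1A2. DESeq2 and edgeR with RLE size factors called both of them.

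The main type IV pair was higher in the colon. COL4A1 ran from 184 to 724 CPM (median 339.6) in the ileum and from 293 to 1929.6 CPM (median 575) in the colon, with a log2 change of 1.02 ± 0.26 (SE, adjusted p = 0.00774). COL4A2 ran from 126 to 583 CPM and from 180.2 to 1563 CPM, with a log2 change of 1.17 ± 0.30 (SE, adjusted p = 0.0073). For both genes the highest ileum library was LF 3 and the highest colon libraries were HN 1 and LF 2, all rich in smooth muscle markers. COL6A3, the longest type VI chain, had medians of 212 and 453 CPM in ileum and colon, a log2 change of 1.11 ± 0.26 (SE, adjusted p = 0.00355). COL15A1 had medians of 118 and 214 CPM, a log2 change of 0.80 ± 0.25 (SE, adjusted p = 0.021).

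COL17A1 (chr14:114959404-115007734) had the largest upward log2 change among members, 2.37 ± 0.63 (SE, adjusted p = 0.00923). In the ileum it ran from 7.28 to 209 CPM with a median of 81.9, and in the colon from 6.71 to 969 CPM with a median of 588. All but 3 colon libraries lay above the ileum maximum, and the exceptions were LF 2 at 6.71, HN 1 at 25.9 and LF 1 at 171 CPM. These 3 were also the colon libraries with the least epithelial marker RNA and the most smooth muscle marker RNA. COL13A1, another transmembrane chain, had medians of 6.38 and 11.8 CPM and a log2 change of 0.77 ± 0.23 (SE, adjusted p = 0.0188).

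The short-chain collagens build hexagonal networks, type VIII around vessels and smooth muscle and type X in calcifying cartilage. COL8A1 ranged from 1.72 to 23.7 CPM in the ileum and from 3.15 to 142 CPM in the colon, a log2 change of 1.91 ± 0.62 (SE, adjusted p = 0.0292). Its 4 highest values were colon HN 1, LF 2, LF 1 and LN 1, which are the 4 libraries with the most smooth muscle marker RNA. COL8A2 had a log2 change of 1.03 ± 0.34 (SE, adjusted p = 0.0312), and the scarce COL10A1, with 0 to 19 counts per ileum library and 1 to 29 per colon library, 1.85 ± 0.59 (SE, adjusted p = 0.0265). COL28A1 had a log2 change of 1.11 ± 0.40 (SE, adjusted p = 0.0433). These calls were the least steady when 1 library was left out: COL10A1 kept its call in 23 of 24 such fits, losing it without colon LN 1 (adjusted p = 0.0591), COL8A2 in 15, COL8A1 in 14 and COL28A1 in 8, with adjusted p up to 0.0790, 0.0893 and 0.0859. COL8A1 lost its call without ileum LF 1, LF 2, LN 1, LN 2, HF 1, HN 1 or HN 3, or colon LF 2, LN 1 or HN 1, and COL8A2 without ileum LF 1, LN 1, HF 1, HF 2 or HN 2, or colon LF 2, LN 2, HF 2 or HN 1. COL28A1 kept its call only without ileum LF 3, LN 3, HF 1 or HN 3, or colon LF 2, LN 3, HF 1 or HN 2.

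Among the genes lower in the colon, COL19A1, a FACIT chain, had the smallest adjusted p. It ran from 2.13 to 32.2 CPM (median 16.5) in the ileum and from 0.811 to 5.55 CPM (median 2.85) in the colon, a log2 change of -2.35 ± 0.37 (SE, adjusted p = 0.000121). Only ileum LN 3, at 2.13 CPM, and ileum LF 3, at 4.85 CPM, fell inside the colon range. Its tail-to-tail neighbour COL9A1, 1098 bases away on chromosome 1, was also lower, with 0 to 12 counts per ileum library and 0 to 3 per colon library and a log2 change of -2.65 ± 0.69 (SE, adjusted p = 0.00803). At such counts 0 was read in 2 ileum and 5 colon libraries, and a count of 0 allows up to 3. COL21A1, a FACIT chain found in vessel walls, had medians of 17.1 and 7.59 CPM in ileum and colon and a log2 change of -1.11 ± 0.21 (SE, adjusted p = 0.000662). COL22A1, known from tissue junctions, had medians of 0.992 and 0.328 CPM and a log2 change of -2.39 ± 0.50 (SE, adjusted p = 0.00177), and its ileum values were led by HN 2 at 9.14 CPM.

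The rarer type IV pair went the opposite way from COL4A1 and COL4A2. COL4A4 ran from 1.49 to 13.7 CPM (median 7.19) in the ileum and from 0.199 to 2.86 CPM (median 1.75) in the colon, a log2 change of -2.47 ± 0.40 (SE, adjusted p = 0.00016). COL4A3 had medians of 5.05 and 1.35 CPM and a log2 change of -2.02 ± 0.41 (SE, adjusted p = 0.00142). For both genes the lowest ileum library was LN 3, at 1.49 CPM of COL4A4 and 0.905 CPM of COL4A3, inside the colon ranges. The third pair of type IV genes was not called, with log2 changes of -0.20 ± 0.21 (SE, adjusted p = 0.506) for COL4A5 and 0.25 ± 0.26 (SE, adjusted p = 0.494) for COL4A6. COL23A1, a transmembrane chain, had medians of 9.24 and 4.67 CPM and a log2 change of -1.34 ± 0.38 (SE, adjusted p = 0.0137).

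Several abundant members did not pass. COL12A1 had a log2 change of 0.74 ± 0.30 (SE, adjusted p = 0.0746), with colon libraries spread from 131 to 1194 CPM around an ileum range of 141 to 492 CPM. Its sign turned with the smooth muscle covariate, to -0.20 ± 0.24 (SE, adjusted p = 0.622), and without the muscle-rich libraries, to -0.52 ± 0.19 (SE, adjusted p = 0.0844). COL14A1 stood at 0.65 ± 0.27 (SE, adjusted p = 0.0765) and COL6A2 at 0.33 ± 0.16 (SE, adjusted p = 0.125). COL18A1 had nearly equal medians of 106 CPM in the ileum and 103 CPM in the colon and a log2 change of -0.10 ± 0.19 (SE, adjusted p = 0.734). COL7A1 stood at -0.40 ± 0.32 (SE, adjusted p = 0.363). COL2A1 and COL20A1 had too few counts to be tested, 0 to 7 and 0 to 7 per ileum library and 0 to 8 and 0 to 31 per colon library.

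Smooth muscle marker RNA moved with the tissue contrast. Of the 12 markers 10 were called higher in the colon and none lower, with a median log2 change of 2.08. Among the other marker lists, 3 of 10 fibroblast, 2 of 6 glial, 2 of 6 adipocyte and 3 of 4 tested skeletal muscle markers were higher, 1 of 8 epithelial and 2 of 6 leukocyte markers were lower, and none of 8 endothelial, 3 mesothelial or 4 cartilage markers passed, where 12.5% of all genes were higher and 15.9% lower. With the mean log2 CPM of the 12 smooth muscle markers as a covariate, 10 members were called, 4 higher and 6 lower, of which 9 were among the 19. The share of all genes called with the covariate is not given here, so the fall from 19 cannot be read as particular to collagen. After leaving out the 11 libraries rich in smooth muscle markers, an alternative chosen after seeing the data, 10 were also called, 3 higher and 7 lower, and 9 of them were among the 19. Of all genes 18.8% were then called, 9.32% higher and 9.48% lower. This comparison covers LN, HF and HN, since no colon LF library is left, and LN and HN each keep 1 colon library, assumed to vary like the other groups. The members still higher were COL17A1, with a log2 change of 3.02 ± 0.42 (SE, adjusted p = 0.00142), COL6A3 with 0.74 ± 0.15 (SE, adjusted p = 0.00949) and COL10A1 with 2.33 ± 0.59 (SE, adjusted p = 0.0231). Those lower were COL4A4, COL4A3, COL19A1, COL21A1, COL22A1 and COL23A1, and COL27A1 in addition, with a log2 change of -0.65 ± 0.16 (SE, adjusted p = 0.0208) after 0.34 with all libraries.

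The genes of fibrous and basement membrane matrix lost much of their difference there. COL3A1 kept 0.44 ± 0.20 (SE, adjusted p = 0.163), COL5A1 0.42 ± 0.16 (SE, adjusted p = 0.0973), COL4A1 0.22 ± 0.22 (SE, adjusted p = 0.518), COL4A2 0.33 ± 0.17 (SE, adjusted p = 0.203), COL15A1 0.19 ± 0.22 (SE, adjusted p = 0.595) and COL8A1 0.50 ± 0.47 (SE, adjusted p = 0.506). COL1A1 and COL1A2 stood at 0.15 and 0.02 on the log2 scale. With the covariate instead, COL3A1 stayed called at 0.52 ± 0.15 (SE, adjusted p = 0.0242), COL6A3 at 0.48 ± 0.13 (SE, adjusted p = 0.0124) and COL17A1 at 3.42 ± 0.63 (SE, adjusted p = 0.000837), while COL4A1 stood at 0.32 ± 0.19 (SE, adjusted p = 0.25) and COL8A1 at 0.02 ± 0.35 (SE, adjusted p = 0.979). COL4A4 and COL19A1 were called lower in both, at -1.62 and -2.15 with the covariate and -2.34 and -2.24 without the 11 libraries.

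**Figure D3:**
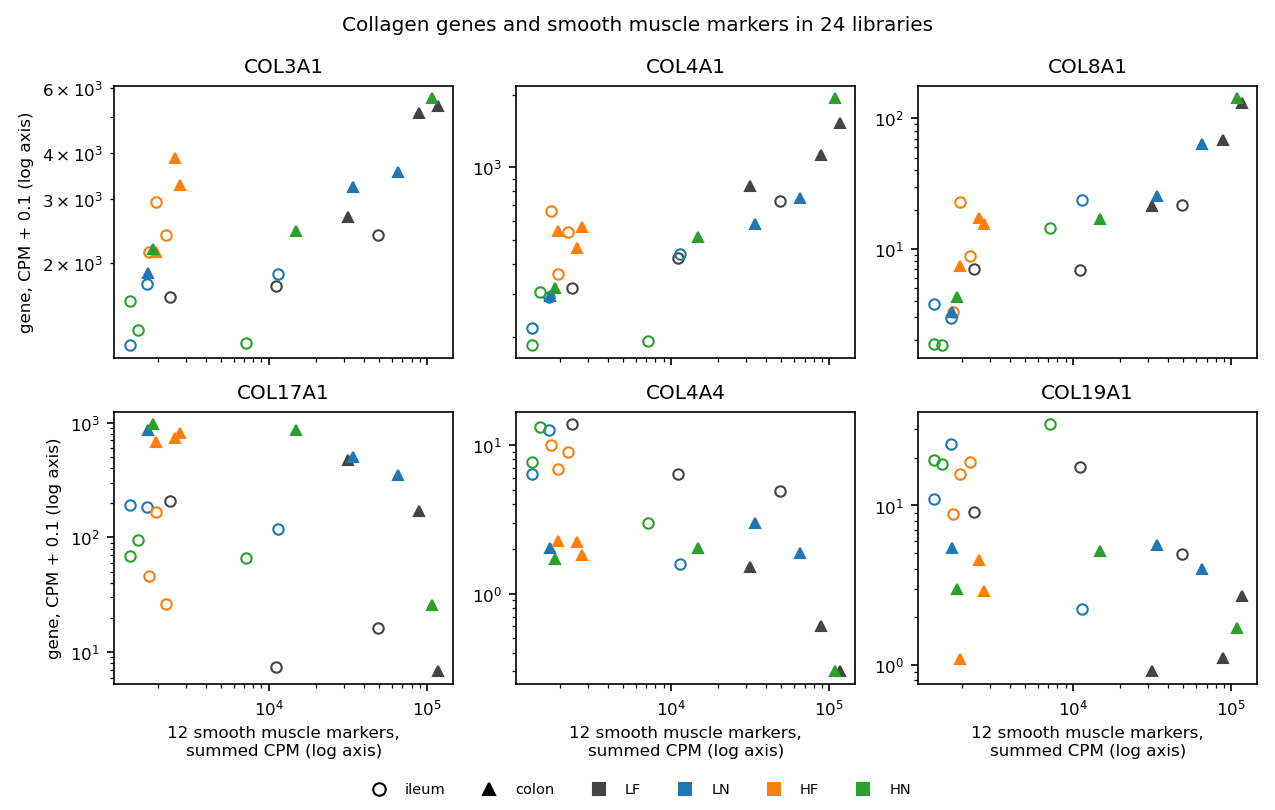
CPM + 0.1 of 6 collagen genes (vertical, log axis) against the summed CPM of 12 smooth muscle markers (horizontal, log axis) in the 24 libraries, with open circles for ileum, triangles for colon and colours for diet. COL3A1, COL4A1 and COL8A1 are highest in the colon libraries with the most marker RNA, COL17A1 is lowest among colon libraries there, and COL4A4 and COL19A1 are higher in most ileum than colon libraries on the left side, where marker RNA is low.

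Genes that make, process and bind collagen were mostly higher in the colon too where they passed. These counts are read against 12.5% of all genes higher and 15.9% lower. Of 21 genes of chain modification and folding, 7 were higher and 1 lower in the colon. FKBP14, a proline isomerase of the endoplasmic reticulum, had a log2 change of 1.32 ± 0.16 (SE, adjusted p = 6.99e-06), the lysyl hydroxylase PLOD2 1.08 ± 0.18 (SE, adjusted p = 0.000241), and the collagen chaperone SERPINH1 0.75 ± 0.21 (SE, adjusted p = 0.0125), whereas P4HB, a subunit of prolyl hydroxylase and a disulfide isomerase, had -1.20 ± 0.28 (SE, adjusted p = 0.00356). Of 12 genes of propeptide cleavage and cross-linking, 4 were higher and none lower: the propeptidase ADAMTS2 with 0.60 ± 0.16 (SE, adjusted p = 0.011) and the lysyl oxidases LOXL3 with 1.11 ± 0.31 (SE, adjusted p = 0.0137), LOX with 0.87 ± 0.27 (SE, adjusted p = 0.023) and LOXL2 with 0.74 ± 0.24 (SE, adjusted p = 0.0248). Of 12 fibril-associated proteins, 3 were higher and none lower. These were fibronectin FN1 with 1.72 ± 0.27 (SE, adjusted p = 0.000144), and the small leucine-rich proteins LUM with 0.95 ± 0.31 (SE, adjusted p = 0.0273) and ASPN with 2.12 ± 0.69 (SE, adjusted p = 0.0293).

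Breakdown and binding showed the same direction for most called genes. Of 13 genes of collagen breakdown and uptake, 4 were higher, among them the gelatinase MMP2 with a log2 change of 0.57 ± 0.13 (SE, adjusted p = 0.004), its activator MMP14 with 0.40 ± 0.09 (SE, adjusted p = 0.00404) and the inhibitor TIMP1 with 1.23 ± 0.33 (SE, adjusted p = 0.00926). The interstitial collagenase MMP1 was lower, with -3.67 ± 0.82 (SE, adjusted p = 0.00272). Of 8 receptors, 3 were higher and none lower: the integrin chains ITGA11 with 0.94 ± 0.16 (SE, adjusted p = 0.00025), ITGB1 with 0.99 ± 0.25 (SE, adjusted p = 0.00685) and ITGA1 with 1.80 ± 0.53 (SE, adjusted p = 0.0173). Without the 11 libraries rich in smooth muscle markers, fewer genes of each list were called higher than with all libraries. More were called lower in modification and folding, in cleavage and cross-linking and among fibril-associated proteins. Counts are not given, since LN and HN each keep 1 colon library in that fit. FKBP14, PLOD2, LOXL3, FN1, MMP2, MMP14 and ITGA11 still stood higher in the colon there, and P4HB and MMP1 lower.

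Diet was compared within each tissue as the average effect of NCG over both fibre levels, the average effect of fibre with and without NCG, their interaction, and HN against LF. No collagen gene passed the test in any of the 8 comparisons. These comparisons had little power. In simulated data a true 2-fold NCG change was called for 13.1% of changed genes in the ileum and 8.08% in the colon. For colon against ileum the share was 57%. A 4-fold NCG change was called for 73% and 61%, so the lack of a call does not show that a gene was unchanged. Changed genes were drawn at random from all genes, 99 at 2-fold and 100 at 4-fold among 14949 in the ileum. The real ileum NCG fit called 884 genes, so these shares need not hold for the collagen genes. In the ileum 38 members were tested and in the colon 39. Members not tested for low counts were COL2A1, COL9A1, COL10A1, COL20A1 and COL26A1 in the ileum and COL2A1, COL9A1, COL20A1 and COL22A1 in the colon. COL26A1 had 1 to 31 counts per ileum library and COL22A1 1 to 10 per colon library.

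The comparison in which collagen came nearest to a call was NCG in the ileum. There COL4A1, COL4A2, COL5A1 and COL3A1 stood lower with NCG than without, without reaching the threshold. By edgeR, 0 of 38 members passed, where 5.85% of all 15103 genes did (5.42% higher and 0.43% lower with NCG). With an unadjusted p under 0.05 there were 7 members, 18.4%, where 21.5% of all genes had one, counting both directions. DESeq2 called 4 members and limma voom none. All 7 stood lower with NCG: COL4A1, COL4A2, COL5A1, COL3A1, COL12A1, COL1A1 and COL16A1. The share of all genes that stood lower at that unadjusted p is not given here, so the shared direction has no background to be read against. The median log2 change was -0.22 for the 38 members and -0.07 for all genes tested.

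COL4A1 read 318, 421 and 724 CPM in the 3 ileum libraries of LF, 216, 293 and 441 with LN, 661, 361 and 541 with HF and 305, 192 and 184 with HN. At high fibre the NCG libraries all lay below those without, and at low fibre they overlapped. Its log2 change was -0.95 ± 0.29 (SE, adjusted p = 0.0947), and by DESeq2 -0.93 ± 0.29 (SE, adjusted p = 0.0177). COL4A2 read 197, 254 and 583 CPM with LF, 132, 161 and 283 with LN, 382, 233 and 287 with HF and 168, 126 and 130.0 with HN, and its log2 change was -1.01 ± 0.32 (SE, adjusted p = 0.102). It showed the same layout as COL4A1, with its highest value in ileum LF 3, the ileum library with the most smooth muscle marker RNA.

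The fibrillar chains COL3A1 and COL5A1 had this layout too. COL3A1 read 1624, 1735 and 2386 CPM with LF, 1196, 1757 and 1865 with LN, 2148, 2941 and 2390.3 with HF and 1314, 1213 and 1579 with HN, a log2 change for NCG of -0.59 ± 0.20 (SE, adjusted p = 0.124). At high fibre the groups did not overlap, and at low fibre they did. COL5A1 read 95.9, 131 and 206 CPM with LF, 74.2, 90.5 and 120.0 with LN, 153, 127 and 145 with HF and 64.1, 78.1 and 105 with HN, a log2 change of -0.73 ± 0.23 (SE, adjusted p = 0.101), in the same layout. COL1A1, COL1A2 and COL5A2 overlapped between HF and HN. COL4A6, COL6A6 and COL5A3 also lay lower with NCG at high fibre without overlap, while COL27A1 and the scarce COL10A1 lay higher without overlap. COL5A3 stood higher in LN than LF through ileum LN 3. How many of all genes separated their HF and HN libraries in this way was not counted in either tissue. The layout therefore cannot be read as particular to collagen. COL1A1 stood at -0.62 ± 0.26 (SE, adjusted p = 0.207) and COL1A2 at -0.37 ± 0.22 (SE, adjusted p = 0.378). The remaining members of the set named in each comparison were COL12A1 at -0.57 ± 0.23 (SE, adjusted p = 0.187), COL6A3 at -0.64 ± 0.35 (SE, adjusted p = 0.322), COL15A1 at -0.38 ± 0.32 (SE, adjusted p = 0.53), COL14A1 at -0.20 ± 0.44 (SE, adjusted p = 0.833), COL18A1 at -0.21 ± 0.25 (SE, adjusted p = 0.669) and COL17A1 at 0.51 ± 0.72 (SE, adjusted p = 0.731).

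Smooth muscle markers had a median log2 change for NCG in the ileum of -0.75, none of the 12 passing. The 5 adipocyte markers tested had a median log2 change of 3.37, carried by ileum LN 3 with a sum of 3879.6 CPM against 67.4 and 64.3 CPM in the other LN libraries, while HN had 44.9, 52.8 and 27.9 CPM and HF 50.6, 43.2 and 37.6 CPM. Their part in the collagen values was not tested. Without the 4 muscle-rich ileum libraries 8 were left, and LF kept only LF 1. So few libraries measure the spread poorly, and a missing call there cannot decide whether muscle RNA had a part. The log2 changes for NCG in that fit were -0.71 for COL4A1 and -0.72 for COL4A2. Of the pathway lists, COLGALT1, which adds galactose to collagen hydroxylysine, was lower with NCG, with a log2 change of -0.51 ± 0.13 (SE, adjusted p = 0.0488). It was the only 1 of 21 modification genes to pass, and none passed in the other 4 lists. Smallest in unadjusted p there were TLL1 with 1.37 ± 0.56 (SE, adjusted p = 0.193) and LOXL2 with -0.81 ± 0.34 (SE, adjusted p = 0.205) in cleavage and cross-linking, OGN with 1.46 ± 0.49 (SE, adjusted p = 0.124) and FN1 with -1.14 ± 0.40 (SE, adjusted p = 0.136) among fibril-associated proteins, MMP14 with -0.55 ± 0.17 (SE, adjusted p = 0.0896) and FAP with 1.48 ± 0.52 (SE, adjusted p = 0.139) in breakdown, and DDR2 with 1.06 ± 0.64 (SE, adjusted p = 0.373) and ITGA2 with 0.44 ± 0.28 (SE, adjusted p = 0.39) among receptors. For TLL1, OGN, FAP and DDR2 the highest value was that of ileum LN 3, at 36.7, 326, 76.1 and 280.3 CPM, where the other LN libraries had at most 4.99, 67.6, 10.4 and 33.6 CPM.

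Fibre in the ileum left collagen without a call, as it did every gene, 0% of 15103. A single member, COL22A1, had an unadjusted p under 0.05, 2.63% of members where 5.26% of all genes had one, and DESeq2 and limma voom called none. COL22A1 read 1.67, 0.633 and 0 CPM with LF, 0.670, 1.08 and 0.388 with LN, 2.27, 2.82 and 0.372 with HF and 0.906, 9.14 and 3.30 with HN, and its log2 change was 1.91 ± 0.81 (SE, adjusted p = 0.802). The groups overlapped. The fibrillar chains COL3A1, COL1A1 and COL1A2 had log2 changes of 0.05, 0.20 and 0.12, and COL4A1 and COL4A2 -0.22 and -0.35. COL6A3, COL12A1, COL14A1 and COL15A1 stood at -0.52, -0.12, -0.69 and -0.56, and COL17A1 and COL18A1 at -0.54 and 0.19 on the same scale. No member had an adjusted p below 0.802. No gene of the 5 pathway lists passed, and those of smallest unadjusted p, with their log2 changes, were P4HA1 (-0.26) and FKBP14 (-0.42) in modification and folding, BMP1 (-0.47) and LOXL2 (-0.71) in cleavage and cross-linking, ASPN (-1.88) and DCN (-0.94) in fibril-associated proteins, MMP8 (4.83) and TIMP3 (-1.09) in breakdown, and ITGB1 (-0.58) and ITGA1 (-1.06) in receptors. All 12 smooth muscle markers stood lower at high fibre in the ileum, 11 with an unadjusted p under 0.05 and none passing adjustment.

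For the ileum interaction of NCG and fibre 0 members passed where 0% of all genes did, 2 had an unadjusted p under 0.05 (5.26% of members, 4.45% of all genes), and DESeq2 and limma voom called none. The 2 were the neighbours COL4A6 and COL4A5, with log2 differences of -1.46 ± 0.58 (SE, adjusted p = 0.872) and -1.14 ± 0.48 (SE, adjusted p = 0.872). COL4A5 read 56.9, 40.0 and 38.9 CPM with LF, 32.9, 71.4 and 70.2 with LN, 96.3, 58.5 and 66.3 with HF and 58.6, 35.1 and 42.5 with HN. For HN against LF in the ileum 0 members passed where 1.88% of all genes did (1.87% higher and 0.00662% lower in HN), 4 had an unadjusted p under 0.05 (10.5% against 13.1%), and DESeq2 and limma voom called none. These were COL4A2 at -1.35 ± 0.45 (SE, adjusted p = 0.206), COL4A1 at -1.16 ± 0.41 (SE, adjusted p = 0.247), COL5A1 at -0.87 ± 0.32 (SE, adjusted p = 0.279) and COL6A3 at -1.16 ± 0.50 (SE, adjusted p = 0.351), all lower in HN.

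**Figure D4:**
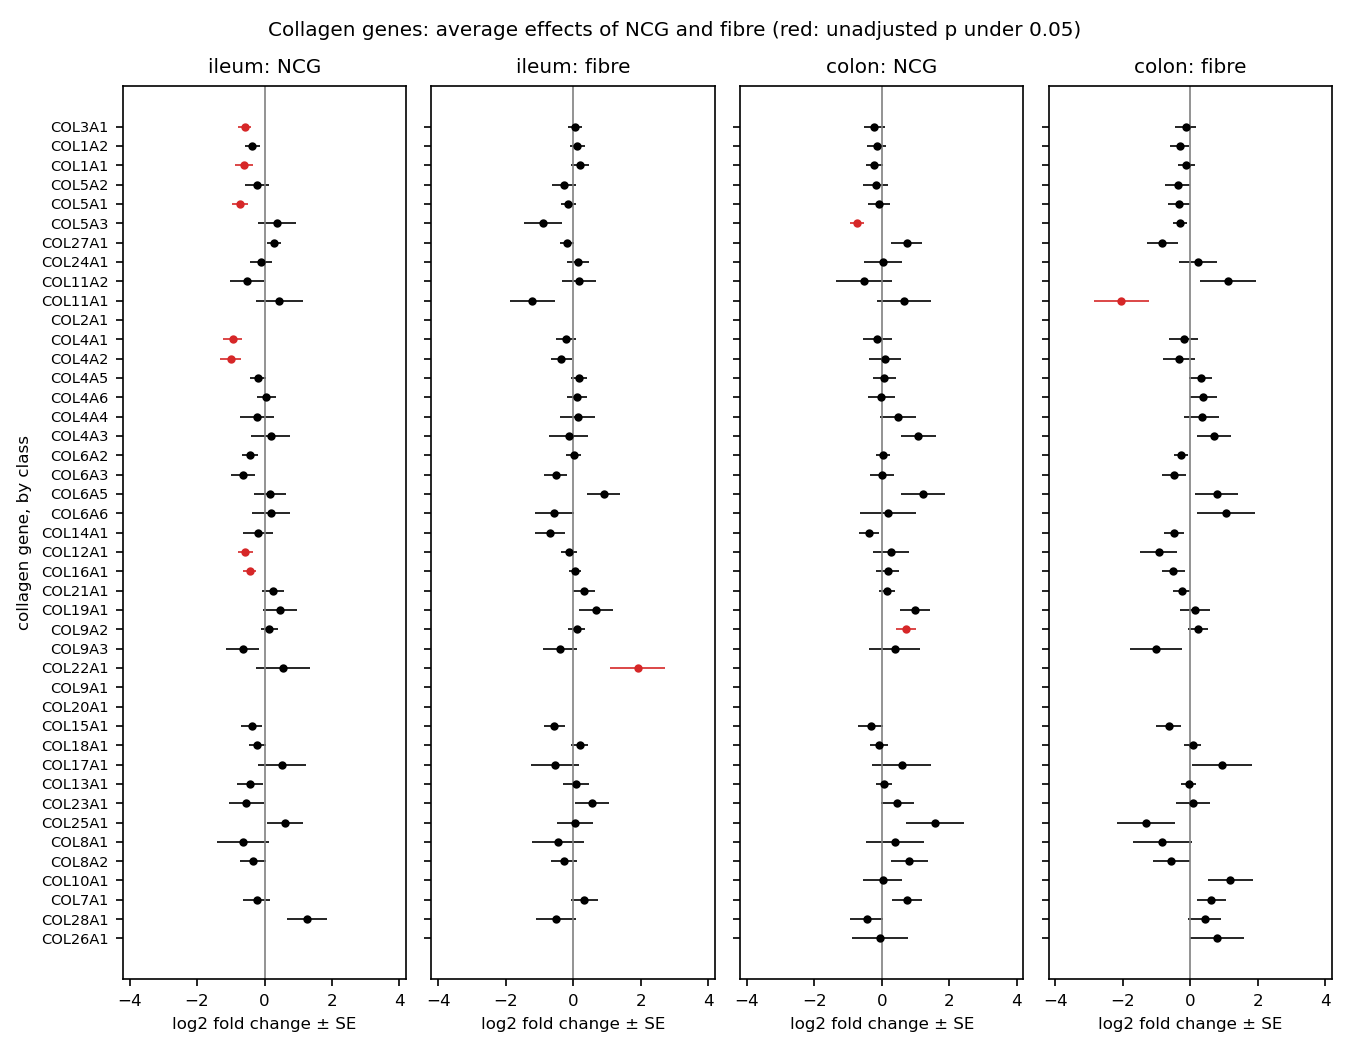
Log2 fold change with its standard error of each collagen gene (rows, by class) for NCG and for fibre in ileum and colon, with red marking an unadjusted p under 0.05. In the ileum NCG panel 7 genes are red, all left of 0, and the other panels hold 1 or 2 red genes each, and no gene passed adjustment in any panel.

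In the colon NCG left 0 of 39 members called, as 0% of 15075 genes were. With an unadjusted p under 0.05 there were 2, 5.13% of members where 12.4% of all genes had one, and limma voom called no member. COL5A3 read 52.2, 70.0 and 30.9 CPM with LF, 21.8, 32.8 and 18.9 with LN, 35.0, 30.6 and 34.9 with HF and 26.5, 23.6 and 24.1 with HN, lower with NCG at high fibre without overlap and overlapping at low fibre. Its log2 change was -0.73 ± 0.22 (SE, adjusted p = 0.264), and DESeq2, which called it alone, gave -0.76 ± 0.23 (SE, adjusted p = 0.038). COL9A2, a FACIT chain best known from cartilage, stood at 0.72 ± 0.30 (SE, adjusted p = 0.364). The ileum's leading members were closer to 0 here, with COL4A1 at -0.13 ± 0.42 (SE, adjusted p = 0.934), COL3A1 at -0.22 ± 0.32 (SE, adjusted p = 0.832) and COL1A1 at -0.22 ± 0.25 (SE, adjusted p = 0.766). On the log2 scale COL1A2, COL4A2, COL6A3 and COL12A1 stood at -0.15, 0.10, -0.00309 and 0.28, and COL14A1, COL15A1 and COL18A1 at -0.38, -0.33 and -0.08. COL17A1 read 171, 6.71 and 472 CPM with LF, 353, 501 and 869 with LN, 674, 735 and 809 with HF and 25.9, 856 and 969 with HN, a log2 change of 0.59 ± 0.87 (SE, adjusted p = 0.833). All 4 groups overlapped, except that LF lay below HF, and LF and HN held the 3 colon libraries poorest in epithelial markers. None of the pathway genes passed either, the nearest by unadjusted p being PPIB (-0.53) and P3H4 (-0.48) in modification and folding, ADAMTS2 (-0.61) and PCOLCE2 (-0.63) in cleavage and cross-linking, POSTN (1.60) and ASPN (1.60) in fibril-associated proteins, MMP14 (-0.36) and MMP9 (1.33) in breakdown, and ITGA10 (0.61) and DDR2 (1.18) in receptors.

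Fibre in the colon called 0 members and 0% of all genes, and DESeq2 and limma voom called no member. COL11A1 alone, 2.56% of members where 4.59% of all genes did, had an unadjusted p under 0.05, with at most 27 counts in any colon library and a log2 change of -2.05 ± 0.82 (SE, adjusted p = 0.836). COL12A1 stood at -0.94 ± 0.54 (SE, adjusted p = 0.836), COL15A1 at -0.64 ± 0.37 (SE, adjusted p = 0.836) and COL17A1 at 0.94 ± 0.88 (SE, adjusted p = 0.836). COL3A1, COL1A1 and COL1A2 had log2 changes of -0.14, -0.12 and -0.31, COL4A1 and COL4A2 -0.20 and -0.34, and COL6A3, COL14A1 and COL18A1 -0.50, -0.49 and 0.07. The pathway lists again held no called gene, and led by unadjusted p with log2 changes for P3H2 (-0.91) and P3H4 (-0.46) in modification and folding, LOXL1 (-0.96) and LOXL4 (-1.06) in cleavage and cross-linking, POSTN (-1.82) and TNXB (-0.57) in fibril-associated proteins, MMP9 (1.63) and TIMP1 (-0.84) in breakdown, and ITGB1 (-0.95) and ITGA1 (-1.75) in receptors. All 12 smooth muscle markers stood lower at high fibre, 9 with an unadjusted p under 0.05. The summed smooth muscle markers lay between 31677 and 116590.0 CPM in colon LF and between 1938 and 2749 CPM in colon HF, so in these libraries low fibre without NCG and muscle RNA cannot be told apart.

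In the colon interaction 0 members passed as 0% of all genes did, and 6 had an unadjusted p under 0.05, 15.4% where 15% of all genes had one. DESeq2 called COL8A2 alone and limma voom none. COL8A2 read 15.7, 21.4 and 7.14 CPM with LF, 3.68, 7.25 and 4.28 with LN, 0.657, 3.11 and 2.17 with HF and 38.5, 8.36 and 5.74 with HN. NCG libraries stood above the others at high fibre without overlap and lower, with overlap, at low fibre, and the log2 difference was 4.68 ± 1.13 (SE, adjusted p = 0.327), by DESeq2 4.74 ± 1.10 (SE, adjusted p = 0.0177). COL12A1 read 881, 1194 and 371 CPM with LF, 531, 371 and 131 with LN, 137, 168 and 148 with HF and 1162, 259 and 132 with HN, a log2 difference of 3.03 ± 1.10 (SE, adjusted p = 0.327). The 3 highest values, colon LF 2, HN 1 and LF 1, were the libraries with the most smooth muscle marker RNA. COL6A2, COL16A1, COL4A2 and COL4A1 made up the rest, with log2 differences from 1.09 to 2.22. For HN against LF in the colon 0 members passed where 0% of all genes did, 3 had an unadjusted p under 0.05 (7.69% against 8.94%), and DESeq2 and limma voom called none. These were COL5A3 at -1.04 ± 0.31 (SE, adjusted p = 0.451), COL4A3 at 1.80 ± 0.74 (SE, adjusted p = 0.526) and COL9A2 at 0.95 ± 0.43 (SE, adjusted p = 0.554).

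Whether diet acted differently on collagen in the 2 tissues was tested directly. For fibre, 0 of 41 members passed where 0% of all genes did, 1 had an unadjusted p under 0.05 (2.44% against 2.79%), and DESeq2 and limma voom called none. That member was COL22A1, with a colon minus ileum difference of -3.25 on the log2 scale. For NCG, 0 of 41 passed where 0% of all genes did, 1 had an unadjusted p under 0.05 (2.44% against 2.99%), and DESeq2 and limma voom called none. It was COL28A1, at -1.75 ± 0.79 (SE, adjusted p = 1). COL4A1 and COL4A2 had differences of 0.77 and 1.05, so their lower ileum values with NCG were not shown to differ from the colon.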

How the data were processed

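Per the submitters' processing notes, reads were trimmed with fastp 0.22.0, aligned to Sscrofa11.1 with HISAT2 2.1.0 and counted with HTSeq 0.9.1. The authors deposited 1 table with a raw read count and an FPKM per gene and library, and the deposited gene length is in bases. The deposited FPKM follow from the counts and lengths, with a largest relative difference of 2.10e-07.

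The members and all gene lists were chosen with earlier results of these data known. All 43 members matched RefSeq by symbol and coordinates. Counts were tested with edgeR 4.0.16 (R 4.3.3) by the quasi-likelihood test with TMM scaling, filterByExpr at a minimum count of 10 and Benjamini-Hochberg adjustment over all tested genes, at 0.05. Fits used the 12 libraries of a tissue, or all 24 for tissue contrasts. Fitted log2 changes carry a prior count of 0.125. CPM is the count scaled to TMM library size with no prior, while the marker covariate uses log2 CPM with a prior count of 2. The fit was tested on simulated data first.

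The genes named are the called members of a comparison, up to 12 in each direction by adjusted p, the most abundant member of each class, 11 abundant members in every main comparison, and up to 4 called genes per pathway list, or the 2 of smallest p where none was called. Genes at an unadjusted p under 0.05, and others given as levels only, were added after their values were seen. Alternatives were RLE scaling, no low-count filter, DESeq2 1.42.0, limma 3.58.1 voom, a replicate block, the smooth muscle covariate, removal of a length trend (lowess span 0.3), each library left out in turn, the 6 libraries of HN and LF alone, and CPM in place of FPKM for levels. Sequences of the genes were not used here.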

Additional observations from a re-analysis of the deposited data

How the results depend on the processing

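The count of 19 members between colon and ileum was 21 with RLE scaling, 19 without the low-count filter, 26 with DESeq2, 17 with limma voom and 19 after removing the length trend. The covariate for smooth muscle gave 10 and the fit without the 11 libraries rich in those markers also gave 10, and leaving out 1 library at a time gave 16 to 24. Those last fits called 3557 to 5208 of all genes, where the main fit called 4453. For the other alternatives planned, the share of all genes called is not given here. Those counts cannot show whether collagen genes moved more than other genes. In all 24 fits with 1 library left out, 15 of the 19 kept their call. COL3A1, COL6A3, COL17A1, COL19A1, COL21A1, COL22A1, COL4A4 and COL9A1 kept it in those and in the 7 other alternatives planned. Of these, COL3A1 and COL9A1 lost it without the 11 libraries rich in smooth muscle markers, and COL9A1 had at most 12 counts in any library. The covariate ended 10 calls and added COL11A1. Among those it ended, log2 changes were -1.45 for COL23A1, -1.30 for COL4A3, 0.999 for COL28A1 and 0.59 for COL13A1, close to or somewhat under the values given, and 0.47 for COL8A2, 0.41 for COL5A1, 0.33 for COL4A2, 0.32 for COL4A1, 0.21 for COL15A1 and 0.02 for COL8A1, well under them. The cause was not tested. In the diet comparisons and their differences between tissues, every alternative gave 0 members except DESeq2, with 4 under NCG in the ileum, 1 under NCG in the colon and 1 in the colon interaction, and the replicate block below. Leaving out 1 library gave 0 to 0 in each. Among all genes the ileum NCG count was 1812 by DESeq2 and 884 by edgeR, and by DESeq2 497 genes passed under NCG in the colon and 67 in the interaction there, against 0 by edgeR. No called value reversed its sign, but uncalled members that turned sign between colon and ileum with the covariate included COL12A1, COL7A1, COL18A1, COL27A1 and COL9A3. Of 3120 gene values under alternatives, 53 lost and 28 gained the threshold. Diet comparisons in the colon without muscle-rich libraries were not run, as colon LF has none left.

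Replicate numbers were not used to pair libraries in the main fits, and the labels do not say whether they mark pairs. Only same-numbered libraries were correlated, with no reference from other pairs, so the values below cannot settle it. Same-numbered libraries had deviations correlated between -0.529 and 0.714 in the ileum, over 0.1 in 8 of 18 pairs, between -0.521 and 0.823 in the colon (7 of 18), and between -0.367 and 0.307 across tissues (5 of 12). In fits of both tissues the block joined the ileum and colon libraries of the same diet and number. With it, 16 members were called between colon and ileum, losing COL15A1 (adjusted p = 0.0754), COL28A1, COL8A1 and COL8A2 and gaining COL24A1. Within a tissue the block was the replicate number alone. It gave 1 member for NCG in the ileum (COL5A1, with 665 genes in all). Every other diet comparison gave 0 under its block.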

Other observations

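A few low members were carried by single libraries. Ileum LN 3, the library richest in adipocyte and endothelial markers among ileum libraries, read 181 CPM of COL5A3, 66.3 CPM of COL6A6 and 10.4 CPM of COL28A1, where the other LN libraries of the ileum read 13.6 and 18.3, 4.02 and 10.5, and 3.01 and 1.28 CPM. The same library had the lowest ileum values of COL19A1, COL4A3, COL4A4 and COL6A5, at 2.13, 0.905, 1.49 and 37.4 CPM. COL20A1, a FACIT gene too scarce to test, had its highest count, 31, in colon HN 1, the library with 108339 CPM of smooth muscle markers.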
